A study of Mus musculus with 4 samples.

Results

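Ecm1, Lrg1 and Saa3 are 3 of the 33696 genes counted in single cells from liver aspirates of mice with diet-induced steatohepatitis. They were chosen by name because they rank among the genes with the highest ratio of high over low cholesterol in all cells, or lead the macrophages. Their differences between the diets are therefore descriptions of the values that chose them. The question was how much of these differences came with the number of macrophages and how much with the level within a cell.

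All 3 genes encode secreted proteins. Ecm1 (extracellular matrix protein 1) is a glycoprotein that binds matrix components and is known to keep latent TGF-beta inactive in the liver; T helper 2 cells also make it. Lrg1 (leucine-rich alpha-2-glycoprotein 1) is an acute-phase protein of hepatocytes and a granule protein of neutrophils that modifies TGF-beta signalling. Saa3 (serum amyloid A 3) is the member of its family that mouse macrophages and adipocytes make, whereas Saa1 and Saa2 are made mainly by hepatocytes under interleukin 6 and interleukin 1.

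Male C57BL/6J mice, put on the diets at an age of 7 weeks, were fed the FPC diet, which combines fructose, palmitate, cholesterol and trans-fat and was given to every group, with 0.05% or 1.25% cholesterol for 24 weeks (P-LC24 and P-HC24). Both arms then received 0.05% cholesterol for 8 weeks and were sampled again at week 32 (I-LC32 and I-HC32, the latter being the mice moved from high to low cholesterol). Each library pooled 12 fine-needle aspiration biopsies, 4 from each of 3 mice, and the same mice gave both time points of an arm. With 1 library per condition there was no replicate and no test between conditions, and the pooled biopsies could not be told apart by animal. The comparisons are named Prog (P-HC24 over P-LC24) and Int (I-HC32 over I-LC32).

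After filtering, 4930, 6532, 6978 and 6919 cells were kept in P-LC24, P-HC24, I-LC32 and, last, I-HC32, which is the order of each series of values below. They held 38423811, 63019212, 61571512 and 76924261 UMIs (unique molecular identifiers, 1 per captured transcript), with medians of 6291, 7268.5, 6860 and 8534 UMIs per cell. Levels are given as CPM, the UMIs of a gene per 1000000 UMIs of the cells named. Intervals cover 95% and counting error only, not the spread between mice. Between 17 and 41 cell barcodes were found in both libraries of a pair, and 1 of these was a macrophage barcode in both P-LC24 and P-HC24.

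The macrophages formed 1 cluster of 38, 457, 73 and 630 cells. All 10 general macrophage markers and all 12 markers of peritoneal macrophages were detected in it in every library, with Slpi the most abundant of the latter. A marker of a list counts as detected here with any UMI in the cluster. Over all libraries, 9 of the 10 general and 12 of the 12 peritoneal markers were in 25% or more of the cells. So were 4 of 9 Kupffer cell and 1 of 6 B cell markers. Gata6, a transcription factor that marks the large macrophages of the peritoneal cavity, was detected in 84.2%, 74.0%, 79.5% and 82.4% of these cells. Of 9 markers of Kupffer cells (KCs), 7, 7, 8 and 7 were detected in the cluster and summed to 815, 1083, 1099 and 1457 CPM. Most of that was Cd5l, which is also on the peritoneal list, as is Timd4. Timd4 stood at 23.0, 126, 59.9 and 201 CPM (in 13.2%, 47.0%, 31.5% and 62.4% of the cells) and the complement receptor Vsig4 at 68.0, 165, 109 and 229 CPM (in 31.6%, 31.9%, 17.8% and 31.9%), both higher in the high-cholesterol library at each time. So were Cd5l (710, 722, 907 and 972 CPM), Marco (0.919, 10.7, 1.01 and 15.9) and Id3 (6.43, 52.0, 13.6 and 36.5). Nr1h3 was lower with high cholesterol at each time, at 5.51, 3.07, 3.52 and 2.64 CPM from 6, 33, 7 and 36 UMIs. Folr2, at 0.919, 4.47, 4.53 and 0.367 CPM, was higher at week 24 and lower at week 32. Clec4f, the defining KC marker, had 0 UMIs in the cluster in all 4 libraries and 7, 0, 3 and 1 UMIs over all kept cells. Cdh5 was at 0 in the cluster in all libraries but I-LC32. The cluster is called macrophages here, and its marker pattern was peritoneal macrophage-like. The study names a KC class in these libraries. Its annotation of single cells was not used here, and whether that class holds the same cells was not tested. All 6 B cell markers were also detected in it and summed to 100.1, 251, 633 and 139 CPM, with Ighm the most abundant; their part in the levels below was not tested.

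Dividing cells made up different shares of the macrophages. A set of 10 cell cycle genes (Mki67, Top2a, Birc5, Cenpf, Ube2c, Cdk1, Ccna2, Pclaf, Hmmr and Pbk, chosen after values were seen) summed to 749.6, 235, 287 and 227 CPM in macrophages. Cells with UMIs of 3 or more of them, called cycling here, numbered 10, 33, 7 and 33, that is 26.3% (13.4 to 43.1), 7.22% (5.02 to 9.99), 9.59% (3.94 to 18.8) and 5.24% (3.63 to 7.28) of macrophages. Counted over cells and not mice, the interval of P-LC24 lay above those of both high-cholesterol libraries and overlapped that of I-LC32. No difference between conditions was tested. With a mitochondrial limit of 20% in place of 10%, the macrophages fell into 2 clusters, and the smaller, led by Birc5, Cenpf and Ube2c, held 35, 21, 2 and 25 cells against 13, 444, 67 and 655 in the larger. It took in 34, 20, 2 and 25 of the macrophages described here, although its cell cycle genes summed to 710 CPM in P-LC24 against 2759, 4438 and 3036 in the other libraries. The ratios within macrophages are therefore also given without cycling cells.

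Each gene lies on the minus strand of the mouse genome (build GRCm39): Ecm1 (ENSMUSG00000028108) at chr3:95640761-95646943, Lrg1 (ENSMUSG00000037095) at chr17:56426283-56429001 and Saa3 (ENSMUSG00000040026) at chr7:46361422-46365576. Their promoters, taken from RefSeq as 250 bases before to 50 after the start, were searched on both strands for 6 motifs of factors known in macrophages and in the acute phase, because the 3 genes were high in the same cells. The stretches of 30 bases around the matches are shown 5′ to 3′ along the gene, with the match in capitals.
Ecm1 chr3:95646927-95646956, AP-1 (TGANTCA): gcagcagggacTGAGTCAtggcaggaaaca
Lrg1 chr17:56428961-56428990, NF-kappa-B: acccggccctGGGCTCTTCCtgctttgcct
Lrg1 chr17:56429053-56429082, PU.1 (AGGAAGT): cacccttaactAGGAAGTaaaagctgcaga
Saa3 chr7:46365217-46365246, GATA factors (motif AGATAA, opposite strand): atgaaggaaaagTTATCTtctgaaagagaa
Saa3 chr7:46365181-46365210, C/EBP (TTGCNNAA, opposite strand): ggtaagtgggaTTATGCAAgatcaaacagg
No motif was found in more than 1 of the 3 promoters, and STAT (TTCNNNGAA) was found in none of these windows. The matches began at base −64 for Ecm1, at −34 and −125 for Lrg1, and at −134 and −99 for Saa3, counted from the RefSeq start. The GENCODE gene starts lie 62, 55 and 476 bases upstream of the RefSeq starts of Ecm1, Lrg1 and Saa3, so the Saa3 windows and the NF-kappa-B window of Lrg1 fall within the annotated gene and the Ecm1 window spans its annotated start. Such matches are common: among 32851 promoters of the same length, AP-1 was found in 7.81%, NF-kappa-B in 5.56%, PU.1 in 9.35%, GATA in 11.2%, C/EBP in 10.8% and STAT in 8.30%. They are descriptions of the sequence, not sites.

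Over all kept cells, Ecm1 stood at 22.6, 217, 38.2 and 247 CPM, from 868, 13648, 2354 and 19002 UMIs. Both high-cholesterol libraries lay above both low-cholesterol libraries. Its log2 ratio was 3.26 (3.16 to 3.36) in Prog and 2.69 (2.63 to 2.75) in Int.

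Lrg1 stood at 15.0, 62.5, 9.66 and 88.5 CPM, from 576, 3937, 595 and 6809 UMIs. Its log2 ratio was 2.06 (1.93 to 2.19) in Prog and 3.20 (3.07 to 3.32) in Int. With each cell scaled to its own depth, the Prog ratio was 0.90. Its level was lowest in I-LC32 and highest in I-HC32. In CPM its Int ratio was the largest of the 3 members, but with each cell scaled to its own depth it was 2.79, below the 3.07 of Saa3.

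Saa3 stood at 47.6, 300.2, 60.6 and 358 CPM, from 1828, 18921, 3731 and 27550 UMIs. Its log2 ratio was 2.66 (2.59 to 2.73) in Prog and 2.56 (2.51 to 2.61) in Int, which is nearly the same ratio at both times. All 3 members were past 1.2-fold higher in both comparisons, where 16.5% of 7059 compared genes were so in Prog and 13.4% of 7734 in Int. With a mitochondrial limit of 5% in place of 10%, the log2 ratios of Saa3 moved apart, to 3.25 in Prog and 2.11 in Int, and those of Ecm1 were 3.88 and 2.22. Since these ratios chose the genes, nothing is read from that count. In Prog, Ecm1 alone met the filter behind these shares (100 or more UMIs, and detection in 10% or more of the cells of one library), and in Int all 3 did. The median compared gene had a log2 ratio of −0.23 in Prog and −0.012 in Int.

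The ranking shows the edge of the choice. Among genes with 200 or more UMIs over both libraries that were detected in 10% or more of the cells in one of them, Ecm1 ranked 1 of 7032 in Prog, ahead of the mast cell protease Mcpt4 (2.99), the complement genes C1qa (2.84) and C1qb (2.77), and Timp2 (2.75). In Int, Lrg1 ranked 1 of 7707, ahead of the lipid chaperone Fabp4 (3.13), the chemokine Ccl24 (3.11), C4b (2.96) and Pmp22 (2.86), whereas Ecm1 ranked 12 and Saa3 ranked 22. Lrg1 and Saa3 were in fewer than 10% of the cells of both Prog libraries. The ranked members met this filter only through the high-cholesterol library, where they are high, as did the other genes named. In Prog, Ecm1 was in 11.8% of cells against 3.91%. In Int, Ecm1 was in 18.6% against 5.26%, Lrg1 in 10.2% against 1.52% and Saa3 in 14.9% against 2.31%. Their ranks under the filter are therefore no support. Without the filter on cells, Ecm1, Lrg1 and Saa3 ranked 13, 121 and 48 of 11712 genes in Prog and 58, 18 and 84 of 12437 in Int.

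**Figure D1:**
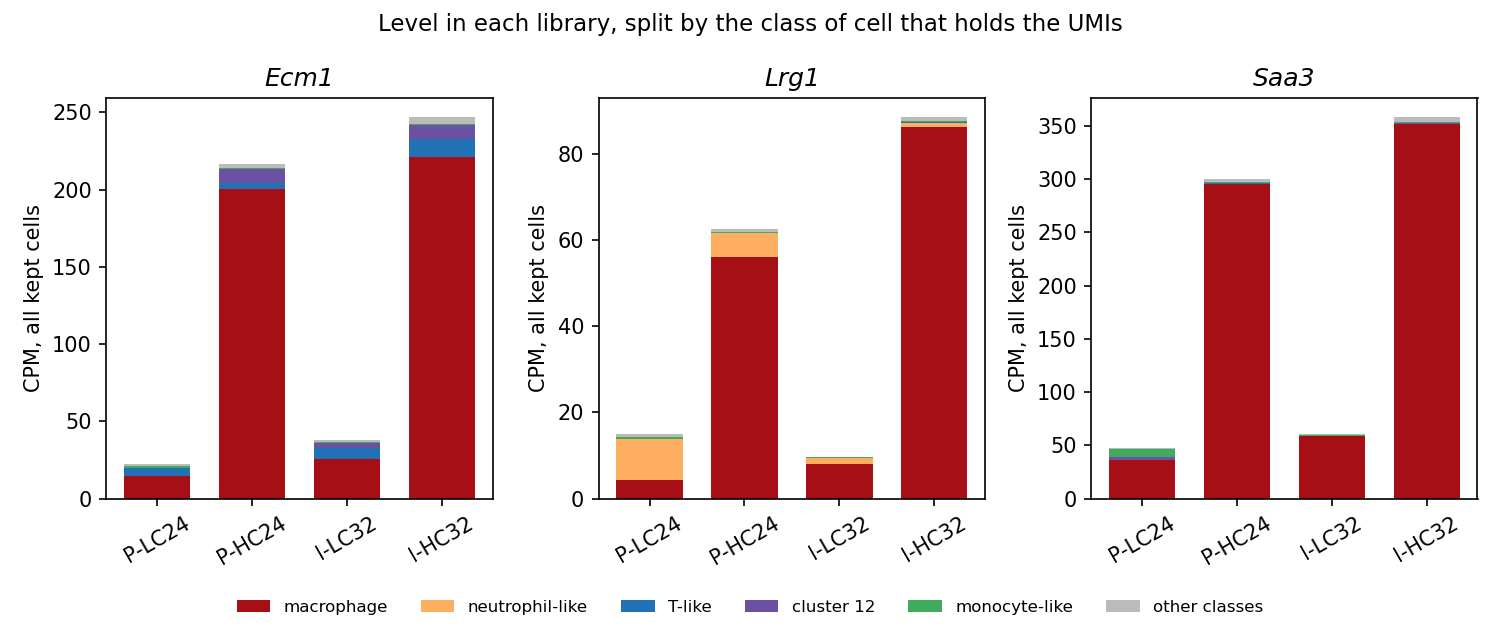
Bars give the level of each gene in all kept cells of a library (CPM, linear axis from 0), stacked by the class of cell that held the UMIs. Macrophages (dark red) fill most of each bar in the high-cholesterol libraries, whereas neutrophil-like cells hold 63.4% of Lrg1 in P-LC24.

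Macrophages made up 0.771% (0.546 to 1.06), 6.996% (6.39 to 7.64), 1.05% (0.821 to 1.31) and 9.11% (8.44 to 9.81) of kept cells. Their share was thus 9.08-fold higher in P-HC24 than in P-LC24 and 8.70-fold higher in I-HC32 than in I-LC32. On the log2 scale these are 3.18 and 3.12, and with a mitochondrial limit of 5% they moved apart to 3.78 and 2.73. They carried 64.7%, 92.5%, 66.9% and 89.5% of the Ecm1 UMIs of a library. For Saa3 the macrophage share was 76.2%, 98.5%, 97.3% and 98.1%. For Lrg1 it was 28.5%, 89.9%, 83.2% and 97.4%, and neutrophil-like cells held a further 63.4%, 8.69%, 13.6% and 1.06%. In P-LC24, therefore, most Lrg1 transcripts lay outside macrophages, which was not so in the other libraries. With a marker gate in place of the cluster, the macrophage shares of all 3 genes were lower outside P-LC24, most in I-LC32 (values in the last section).

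Within the macrophage cluster the differences between diets were smaller than over all cells. The level of Ecm1 in macrophages was 516, 1176, 792 and 1249 CPM. Its log2 ratio was 1.19 (1.07 to 1.31) in Prog and 0.66 (0.58 to 0.73) in Int. The level of Lrg1 in macrophages was 151, 329.7, 249 and 487 CPM, with log2 ratios of 1.13 (0.90 to 1.36) and 0.97 (0.83 to 1.10). Both genes were again highest in the high-cholesterol libraries at each time. Without cycling cells Ecm1 stood at 573, 1237, 881 and 1298 CPM (log2 ratios 1.11 and 0.56) and Lrg1 at 175, 342, 283 and 508 CPM (0.97 and 0.84). In the cycling cells, Ecm1 stood at 396, 718, 349.6 and 703 CPM, with log2 ratios of 0.86 (0.60 to 1.13) in Prog and 1.01 (0.73 to 1.30) in Int, and Lrg1 had 1.23 (0.72 to 1.78) and 1.64 (1.07 to 2.27). In the larger of the clusters formed with the limit of 20%, the 13 cells of P-LC24 held 17 Ecm1 and 0 Lrg1 UMIs, so that the Prog log2 ratio of Ecm1 there was 3.56 (2.88 to 4.34) and Lrg1 stood at 0 against 337 CPM; 1 of these 13 cells was among the 38 macrophages used here. In the smaller cluster, which held 34 of those 38 but 20 of the 457 macrophages of P-HC24, the Prog log2 ratios were 0.39 (0.22 to 0.56) for Ecm1, 0.58 (0.26 to 0.89) for Lrg1 and −0.98 (−1.13 to −0.83) for Saa3, below those of all macrophages and with Saa3 on the other side.

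Saa3 in macrophages stood at 1279.7, 1736, 1828 and 1985 CPM. Its log2 ratio was 0.44 (0.36 to 0.52) in Prog and 0.12 (0.069 to 0.17) in Int. The low-cholesterol library at week 32 thus lay above the high-cholesterol library at week 24. Past 1.2-fold higher in macrophages were all 3 members in Prog, where 21.2% of 7584 compared genes were, and Ecm1 and Lrg1 in Int, where 14.2% of 8469 were. Saa3 in Prog was no longer past 1.2-fold with doublets kept (log2 ratio 0.24) or as mean UMIs per cell (0.15). Without cycling cells its ratios were 0.50 (0.41 to 0.59) and 0.24 (0.18 to 0.29). In the cycling cells alone, which numbered 10, 33, 7 and 33, Saa3 stood at 1195, 753, 2363 and 1495 CPM. These values were lower with high cholesterol, with log2 ratios of −0.67 (−0.83 to −0.50) in Prog and −0.66 (−0.78 to −0.54) in Int. The part of single cells in them was not tested.

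The median gene in macrophages had a log2 ratio of −0.11 in both comparisons. Relative to it, the ratio of Saa3 was 0.55 in Prog and 0.23 in Int. The members lay above 97.8% (Ecm1), 97.6% (Lrg1) and 86.9% (Saa3) of the compared genes in Prog and above 96.5%, 98.6% and 76.4% in Int.

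The macrophages of the low-cholesterol libraries were deeper, at medians of 28202.5, 21968, 24600 and 20763 UMIs. A count of UMIs per cell therefore lowers the ratio of every gene by the same amount within a comparison, and the sign of a small ratio such as that of Saa3 in Int depends on the scale. Counted as mean UMIs per macrophage without scaling, Saa3 stood at 36.7, 40.8, 49.7 and 42.9, so that I-HC32 lay below I-LC32 (log2 ratio −0.21). Ecm1 stood at 14.8, 27.6, 21.6 and 27.0 UMIs per macrophage, higher with high cholesterol at both times. Lrg1 stood at 4.32, 7.74, 6.78 and 10.5 UMIs per macrophage, likewise higher at both times.

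The all-cell level was then recomputed with the class shares of one library (the part of its UMIs in each class) and the class levels of the other. With the class shares of P-HC24 and the levels of P-LC24, Saa3 had a log2 ratio of 2.25 of the 2.66 observed. With the shares of P-LC24 and the levels of P-HC24 it had 0.22. In Int the same exchanges gave 2.42 and 0.29 of 2.56. For Saa3, class shares thus carried 84.6% to 94.5% of the log2 difference, over both orders of exchange and both comparisons. On the scale of UMIs per cell, with shares of cells in place of shares of UMIs, they carried 95.5% to 107%, and the exchange of Saa3 levels gave −0.040 in Prog and 0.020 in Int.

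For Ecm1 the exchange of class shares gave 2.04 of 3.26 in Prog and 1.97 of 2.69 in Int, and the exchange of levels gave 1.23 and 0.98. For Lrg1 the exchange of shares gave 1.09 of 2.06 in Prog and 2.29 of 3.20 in Int, and that of levels 0.45 and 0.94. The share of the log2 difference that went with the classes was 62.4% to 73.1% for Ecm1 and 52.7% to 78.0% for Lrg1. On the scale of UMIs per cell it was 69.0% to 86.4% and 69.4% to 88.9%, and for Lrg1 in Prog the exchange of shares gave 1.64 of 2.37 and that of levels 0.26. On the CPM scale, macrophages held 95.7%, 109% and 103% of the Prog difference of Ecm1, Lrg1 and Saa3 and 93.7%, 99.1% and 98.3% of the Int difference; values above 100% arose where other classes held less in the high-cholesterol library.

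**Figure D2:**
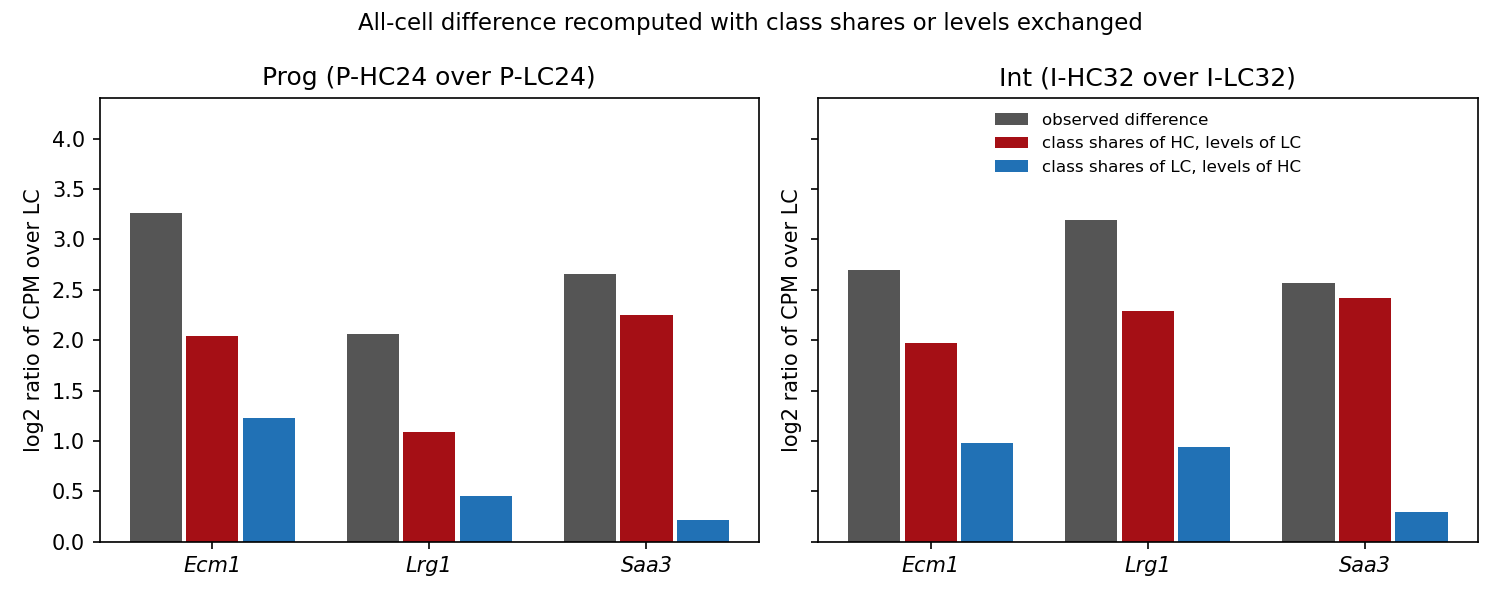
Bars give the log2 ratio of all-cell CPM, high over low cholesterol, as observed (grey), with only the class shares exchanged (red) and with only the levels within classes exchanged (blue), on an axis from 0. The red bar of Saa3 reaches 2.25 of 2.66 in Prog and 2.42 of 2.56 in Int, and the blue bars of Ecm1 reach 1.23 and 0.98.

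Cell by cell, Ecm1 was spread over nearly every macrophage. A UMI of it was found in 92.1%, 99.8%, 100% and 99.7% of them, with medians of 14, 26, 21 and 26 UMIs per cell and maxima of 45, 130, 63 and 115. The tenth of cells with the most Ecm1 held 23.3%, 21.8%, 22.2% and 20.1% of its UMIs. After each cell was thinned to 2000 UMIs, which left out 2, 2, 1 and 1 shallower cells, Ecm1 was in 44.4%, 85.9%, 63.9% and 88.1%, with both high-cholesterol libraries above both low-cholesterol libraries at equal depth.

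Lrg1 was found in 73.7%, 94.3%, 90.4% and 96.3% of macrophages, with medians of 3, 7, 6 and 9 UMIs and maxima of 14, 38, 24 and 39. After thinning it was in 22.2%, 48.6%, 37.5% and 56.9%, again lowest in P-LC24 and highest in I-HC32. Markers of neutrophils, the other class with much Lrg1, summed to 629, 559, 99.2 and 95.8 CPM in the macrophages, where 6, 6, 4 and 6 of 7 were detected, S100a8, S100a9, Csf3r and Csf3r were the most abundant, and Ly6g had 0 UMIs. Their part in the Lrg1 level was not tested.

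Saa3 was spread more unevenly. Its UMIs were found in 84.2%, 96.7%, 95.9% and 96.5% of macrophages, with medians of 20, 24, 36 and 23 and maxima of 135, 454, 322 and 550. The tenth of cells with the most Saa3 held 34.8%, 41.9%, 34.3% and 42.8% of its UMIs. After thinning it was in 72.2%, 75.4%, 81.9% and 78.5% of macrophages, a narrower span than for Ecm1 or Lrg1. Scaled to 10000 UMIs per cell, the median Saa3 was 7.53, 10.9, 13.96 and 11.1, highest in I-LC32.

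**Figure D3:**
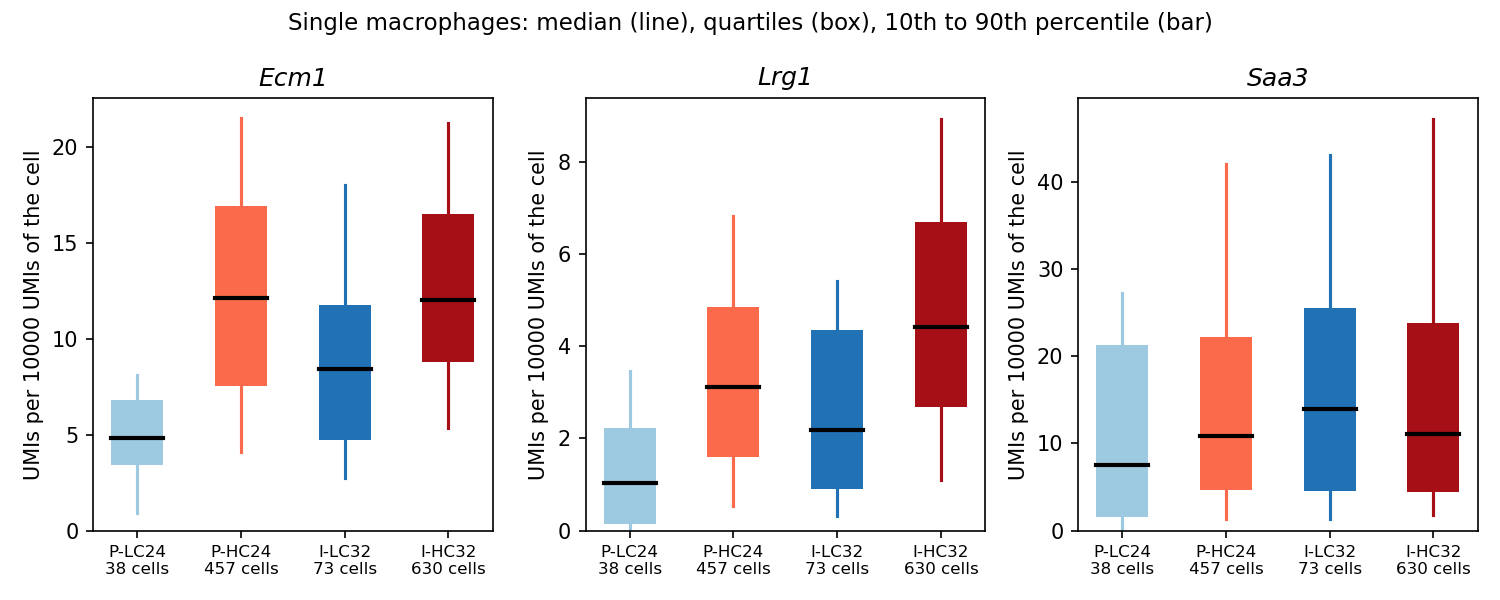
Boxes give the quartiles, black lines the median and bars the 10th to 90th percentile of UMIs per 10000 UMIs of the cell, over 38, 457, 73 and 630 macrophages. Median Ecm1 is 4.81, 12.1, 8.43 and 12.01 and median Lrg1 1.02, 3.11, 2.18 and 4.41, whereas the Saa3 boxes overlap widely.

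All 3 transcripts were found together in 71.1%, 91.0%, 90.4% and 93.2% of macrophages. In P-LC24, 3 of 38 macrophages had none of them, against 0 in each other library. Over single macrophages, each scaled to its depth, the rank correlation of Ecm1 with Lrg1 was 0.54, 0.37, 0.58 and 0.31, and that of Ecm1 with Saa3 was 0.26, 0.10, 0.33 and 0.01. The cells of a library share its free RNA and their own depth, with which scaled Ecm1 had rank correlations of 0.10, −0.38, −0.43 and −0.25, so these values are descriptions.

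The same rank correlation over the 457 macrophages of P-HC24 was taken for 8489 genes, and the genes nearest each member are named here after their values were seen. For Ecm1 they were H2-D1 (0.57), Timp2 (0.55), Fxyd5 (0.52), C4b (0.52) and Cst3 (0.52). In the 630 macrophages of I-HC32, which had no part in that choice, they stood at 0.36, 0.35, 0.25, 0.37 and 0.36. At the other end was the hyaluronan receptor Cd44, at −0.35 and −0.20. Lrg1 had Fxyd5 (0.41 and 0.36), C4b (0.39 and 0.12), H2-D1 (0.38 and 0.27), Ecm1 (0.37 and 0.31) and Prg4 (0.35 and 0.21) nearest. Saa3 had Wfdc17 (0.29 and 0.33), Prdx5 (0.24 and 0.18), Gngt2 (0.23 and 0.11), Timp2 (0.20 and 0.17) and Pltp (0.20 and 0.26). Ecm1 and Lrg1 thus shared H2-D1, Fxyd5 and C4b among their nearest genes, and Ecm1 and Saa3 shared Timp2.

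The same mice sampled 8 weeks later gave a comparison within each arm. It shares its libraries with the ratios that chose the genes and so is also a description. In the high-cholesterol arm, which had returned to 0.05% cholesterol, macrophage Ecm1 had a log2 ratio of week 32 over week 24 of 0.087 (0.054 to 0.12), close to the median gene (0.085). Saa3 had 0.19 (0.17 to 0.22) and Lrg1 0.56 (0.50 to 0.62). Of the members, Lrg1 alone was past 1.2-fold higher, as were 27.5% of 9024 genes, whereas 10.3% were past 1.2-fold lower. None of the 3 was lower after 8 weeks on the low-cholesterol diet on this scale, although mean UMIs of Ecm1 per macrophage were slightly lower (log2 ratio −0.033).

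In the low-cholesterol arm the week 32 over week 24 ratios in macrophages were 0.62 (0.48 to 0.76) for Ecm1, 0.73 (0.47 to 0.99) for Lrg1 and 0.51 (0.42 to 0.60) for Saa3. All 3 were past 1.2-fold higher, as were 29.6% of 4062 genes, and the median gene stood at 0.059. P-LC24 rested on 38 macrophages, so that 1 cell was 2.63% of them, and 10 of them were cycling against 7 of 73 in I-LC32. Without cycling cells the ratios were 0.62, 0.69 and 0.38. In the cycling cells alone they were −0.18 (−0.55 to 0.18), −0.29 (−1.08 to 0.47) and 0.98 (0.81 to 1.16), from 10 and 7 cells, so Ecm1 and Lrg1 were not past 1.2-fold higher there. In the clusters formed with the limit of 20%, most macrophages of P-LC24 (34 of 38) and of I-LC32 (66 of 73) lay in different clusters. Within the smaller cluster (35 and 2 cells) the ratios were −1.50 (−2.22 to −0.86) for Ecm1, −0.26 (−1.20 to 0.55) for Lrg1 and 0.85 (0.64 to 1.05) for Saa3. Ecm1 was thus on the other side there, but its 20 UMIs in I-LC32 came from 2 cells, whose spread the interval leaves out. The interval of Lrg1 spans 0, so it has no side there. Within the larger cluster (13 and 67 cells) Ecm1 had 3.00 (2.31 to 3.78) and Saa3 0.50 (0.30 to 0.71), and Lrg1 stood at 0 against 255 CPM. The smaller Int ratios of Ecm1 and Saa3 than those of Prog went with higher levels in I-LC32 than in P-LC24. The share of macrophages among kept cells was 1.30-fold higher at week 32 in the high-cholesterol arm and 1.36-fold in the low-cholesterol arm, the latter with a log2 interval of −0.14 to 1.05.

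Outside macrophages each gene had its own pattern. For Ecm1 in I-HC32 the order was macrophages at 1249 CPM, cluster 12 at 309.8, basophil or mast-like cells at 233, T-like cells at 141 and monocyte-like cells at 37.2. The basophil or mast-like value rested on 14 UMIs in 15 cells (128 to 391 CPM) and could not be placed apart from cluster 12. B-1-like and follicular B-like cells stood at 5.55 and 7.59 CPM. In monocyte-like cells Ecm1 was 27.0, 19.1, 20.8 and 37.2 CPM over the 4 libraries, with log2 ratios of −0.51 (−1.17 to 0.14) in Prog and 0.84 (0.13 to 1.52) in Int. Natural killer-like cells held 2, 5, 5 and 4 Ecm1 UMIs, erythroid-like cells 2, 6, 7 and 18, and unnamed cluster 6 held 10, 10, 12 and 15. Lrg1 and Saa3 had at most 13 UMIs in any library in these 3 classes. Unnamed clusters 15 and 17 held at most 6 UMIs of any member in a library, and neutrophil-like cells at most 4 of Ecm1 or Saa3. Lrg1 had at most 5 UMIs per library in cluster 12 and 0 in basophil or mast-like cells, where Saa3 had at most 1, and hepatocyte-like cells held 0 of Ecm1.

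**Figure D4:**
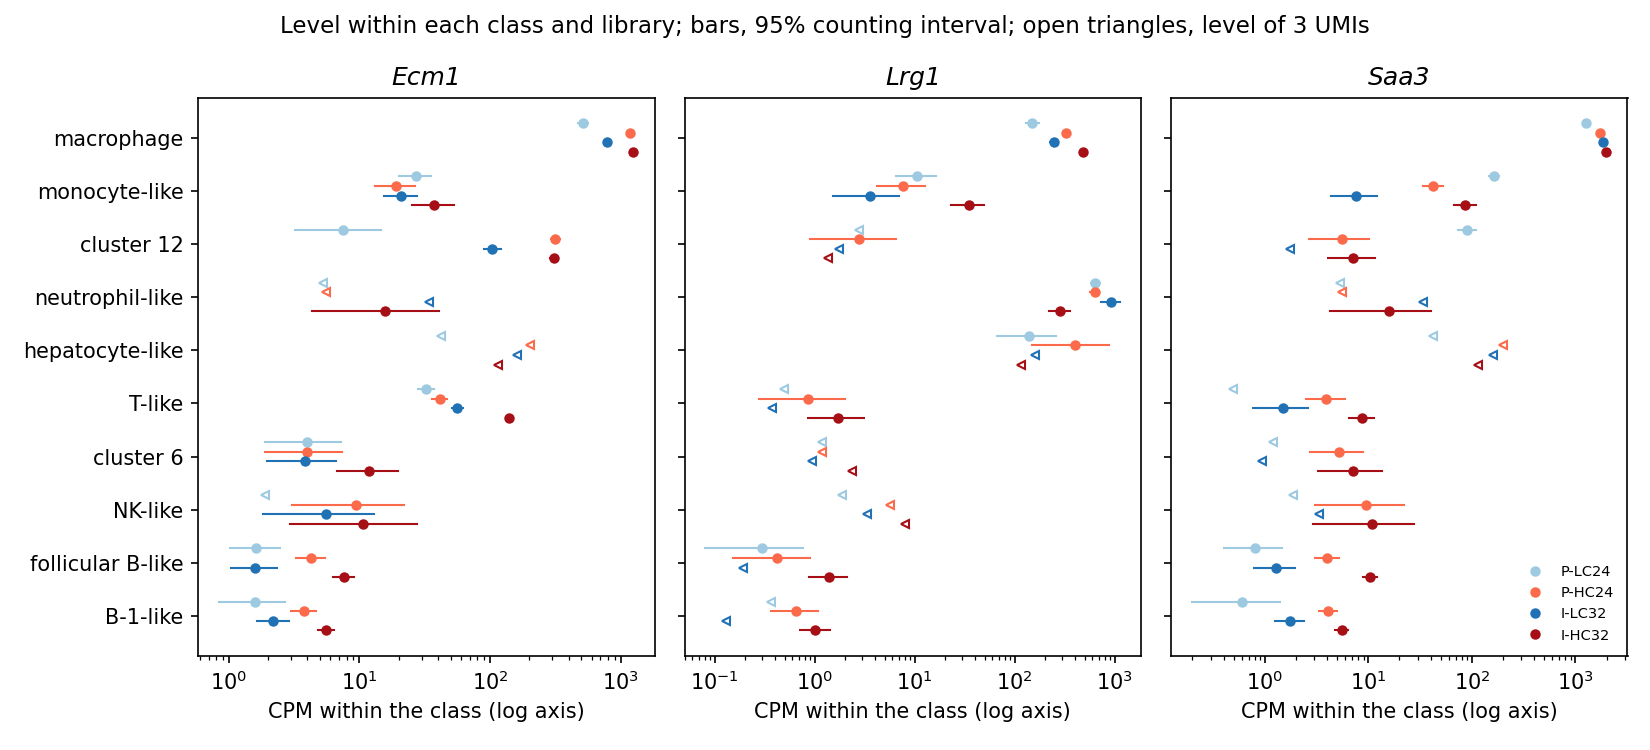
Points give the level of each gene within a class and library (CPM of that class, log axis) with 95% counting intervals, and open triangles mark the level of 3 UMIs where no more than 3 were counted. Ecm1 is also found in cluster 12 and T-like cells, Lrg1 in neutrophil-like cells, and Saa3 little outside macrophages.

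Ecm1 in T-like cells was 32.3, 41.3, 56.2 and 141 CPM, a log2 ratio of 0.36 (0.08 to 0.64) in Prog and 1.32 (1.16 to 1.49) in Int. Most of it lay in cluster 3, whose leading genes (Lef1, Tcf7, Il7r, Igfbp4 and Dapl1) mark resting T cells. There Ecm1 stood at 41.1, 48.97, 101 and 234 CPM, with I-HC32 above the other 3 libraries. Its log2 ratio was 0.25 (−0.039 to 0.55) in Prog and 1.21 (1.04 to 1.38) in Int, and week 32 over week 24 it was 2.25 in the high-cholesterol arm and 1.30 in the low-cholesterol arm.

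The kinds of T cell in the cluster also differed between libraries. Cells with a Cd4 UMI and none of Cd8a or Cd8b1 numbered 116, 75, 150 and 153, and cells with the reverse pattern 304, 340, 248 and 105; these subsets were chosen after values were seen. Ecm1 was found in 27.6%, 18.7%, 30.7% and 48.4% of the Cd4 cells, at 114, 141, 174 and 319 CPM. In the Cd8 cells it was found in 5.59%, 4.12%, 5.65% and 15.2%, at 7.32, 8.12, 17.2 and 30.9 CPM. Within the subsets the Int log2 ratio was 0.87 (Cd4), 0.84 (Cd8) and 0.71 (neither), below the 1.21 of the whole cluster. In Prog it was 0.30, 0.15 and 0.27, each with an interval that spans 0, beside 0.25 for the whole cluster.

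In T-like cluster 4 as a whole Ecm1 stood at 8.06, 19.3, 5.36 and 38.9 CPM, from 13, 29, 20 and 118 UMIs, a log2 ratio of 1.26 (0.27 to 2.33) in Prog and 2.86 (2.17 to 3.62) in Int. In its cells with a Cd4 UMI and none of Cd8a or Cd8b1, the Int log2 ratio was 1.31 (0.42 to 2.29), below that of the whole cluster. In its cells with the reverse pattern the Prog log2 ratio was 1.33 (−0.75 to 3.60). Ecm1 in those cells stood at 0.918 CPM in I-LC32 and 24.3 CPM in I-HC32, from 2 and 27 UMIs. The I-LC32 count was too low for an Int ratio, so the lower ratio of the Cd4 cells does not stand for these cells. A small set within this cluster, with UMIs of both Gata3 and Il1rl1 (the interleukin 33 receptor of type 2 lymphocytes), numbered 4, 18, 15 and 58 cells. Ecm1 there was 46.2, 59.4, 26.2 and 108 CPM, from 1, 14, 3 and 70 UMIs. The set was found after values were seen and is too small in P-LC24 and I-LC32 to place those levels.

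In cluster 12, which holds dendritic cells and cells led by Retnla, Fcrls and Mrc1, Ecm1 was 7.45, 317, 104 and 309.8 CPM. Cells with a UMI of Retnla or Fcrls and none of the dendritic cell receptor Flt3 numbered 1, 47, 25 and 57, again a subset chosen after values were seen. Ecm1 was found in 0, 89.4%, 76.0% and 89.5% of them, at 461, 210 and 466 CPM in the last 3 libraries, and its Int log2 ratio was 1.15 (0.89 to 1.41). Gata6 had a UMI in 0, 0, 8.00% and 0% of these cells, against most of the macrophages described above. P-LC24 had 1 such cell among the 63 of cluster 12. The cells with neither pattern had a log2 ratio of 1.70 (0.18 to 3.40) in Prog and −0.19 (−2.02 to 1.37) in Int.

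In droplet data, free RNA can give UMIs of a gene in cells that do not express it. To set the members beside other macrophage genes, 10 reference genes of macrophages (among them Prg4, Slpi and C1qb) were read in follicular B-like cells, where they stood at 0.010% to 0.146%, 0.122% to 0.421%, 0.013% to 0.113% and 0.292% to 0.484% of their macrophage level. Saa3 stood there at 0.064%, 0.232%, 0.070% and 0.520%, within that range in 3 libraries and slightly above it in I-HC32. Lrg1 stood at 0.196%, 0.126%, 0.051% and 0.288%, near the range. Ecm1 stood at 0.315%, 0.360%, 0.201% and 0.607%, above the range in all libraries but P-HC24. In B-1-like cells the reference genes stood at 0.0087% to 0.403%, 0.115% to 0.218%, 0.033% to 0.058% and 0.197% to 0.345%. Saa3 stood there at 0.047%, 0.236%, 0.096% and 0.278%, above the range in P-HC24 and I-LC32, and Ecm1 at 0.305%, 0.318%, 0.276% and 0.444%, above it in all libraries but P-LC24.

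In T-like cluster 3, Ecm1 stood at 7.96%, 4.16%, 12.8% and 18.7% of its macrophage level, whereas the highest of the 10 reference genes stood at 0.154%, 0.257%, 0.120% and 0.467%. The part of free RNA in these levels was not tested. Lrg1 and Saa3 in the same cells were at or below 0.349% of theirs.

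**Figure D5:**
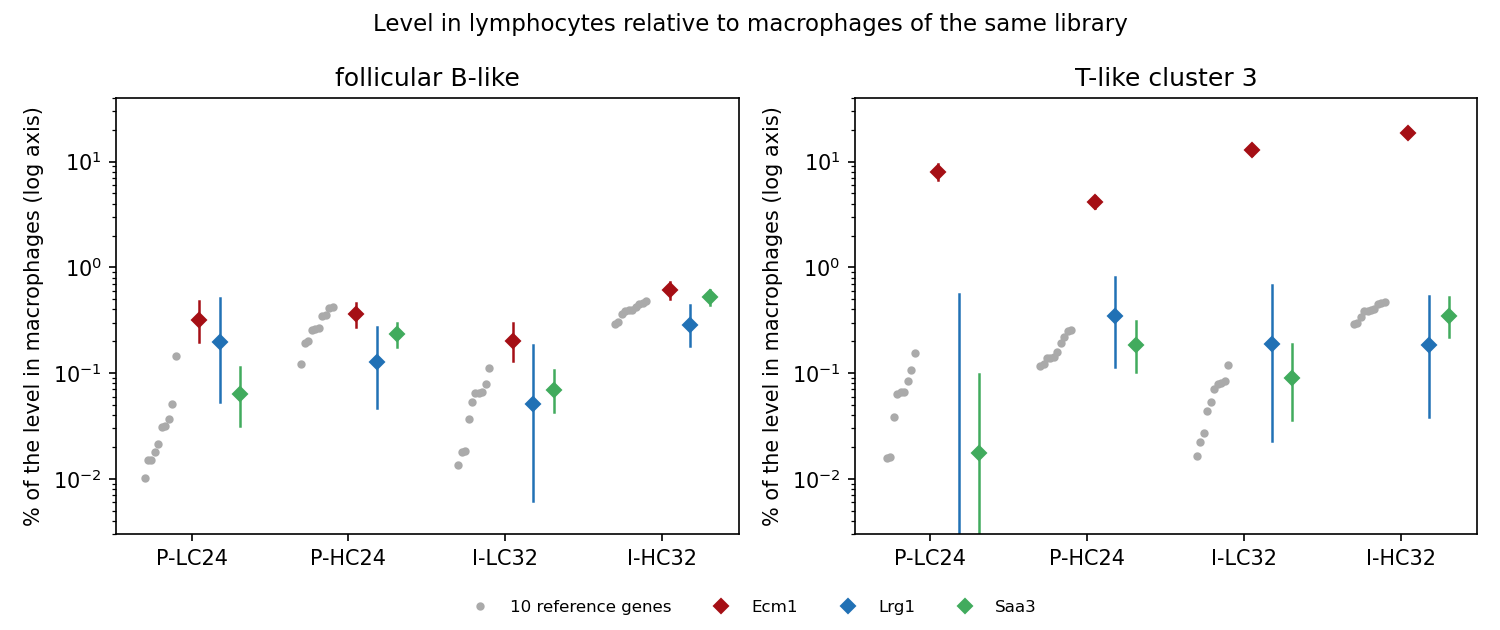
Points give the level of a gene in a lymphocyte class as a percentage of its level in macrophages of the same library (log axis), with grey points for the 10 reference genes and bars for 95% counting intervals. Ecm1 in cluster 3 lies at 4.16% to 18.7%, above all grey points; Lrg1 had 0 UMIs in cluster 3 of P-LC24 and reference genes at 0 are likewise not drawn.

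Lrg1 was highest in neutrophil-like cells in 3 libraries, at 642, 634, 919 and 285 CPM, from 365, 342, 81 and 72 UMIs in 124, 125, 32 and 43 cells. In I-HC32 it lay below the macrophages. Its log2 ratio in neutrophil-like cells was −0.02 in Prog and −1.69 (−2.17 to −1.21) in Int. The I-HC32 cells did not match their class: S100a8, a defining neutrophil gene, was found in 22 of the 43, against 123 of 124, 124 of 125 and 32 of 32, and 18 had more than 2 UMIs of the B cell gene Cd79a, against 2, 2 and 1. Without the cells of more than 2 Cd79a UMIs, Lrg1 in neutrophil-like cells was 656, 637, 883 and 703 CPM, so that all 4 libraries, I-HC32 included, lay above their macrophages.

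Hepatocytes, the classical source of Lrg1, were nearly absent, with 31, 11, 11 and 12 hepatocyte-like cells. They held 10, 6, 0 and 3 Lrg1 UMIs, that is 139.8, 404 and 115 CPM in the libraries with any. For the 0 of I-LC32, a level of 3 UMIs would be 161 CPM, which is a floor and not the upper end of an interval. The 6 UMIs of P-HC24 have an interval of 148 to 879 CPM. Monocyte-like cells held 20, 14, 8 and 29 Lrg1 UMIs.

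Saa3 was low outside macrophages, and where it was not, few cells held it. Monocyte-like cells stood at 165, 42.5, 7.53 and 86.3 CPM, but 5, 3, 0 and 2 cells with at least 10 UMIs held 294, 52, 0 and 42 of the 312, 78, 17 and 72 UMIs. Without these cells, which were left out by their own Saa3 count, 18, 26, 17 and 30 UMIs remained (9.94, 14.5, 7.53 and 37.2 CPM). In cluster 12 of P-LC24, 2 cells held 96 of 97 UMIs.

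The other serum amyloid A genes did not share this pattern. Saa1 had 0, 5, 0 and 7 UMIs in macrophages and Saa2 had 1, 3, 0 and 1, beside 1393, 18629, 3631 and 27026 of Saa3. Saa4 had 0 UMIs in the macrophages of all 4 libraries, and 5 over all kept cells of P-LC24, 4 of them in hepatocyte-like cells. In hepatocyte-like cells the order was the opposite: Saa1 had 7, 15, 0 and 6 UMIs and Saa3 had 0, 1, 0 and 0.

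Genes whose level followed a member most closely over 46 sums of a class and library with at least 20 cells were found by the correlation of log2(CPM + 1) among 13567 genes. For Ecm1 they were Ccl24 (0.86), Zbtb7c (0.86), Calml4 (0.85), Fcna (0.85) and Ltc4s (0.85). For Saa3 they were Pf4 (0.92), Vsig4 (0.88), Naip1 (0.88), Engase (0.88) and Gm32089 (0.87). For Lrg1 they were Vnn3 (0.94), Hnmt (0.89), P2ry2 (0.88), Csf3r (0.86) and Clec4d (0.86), of which Csf3r is the receptor for the neutrophil growth factor G-CSF. The points share libraries and classes, so the values are descriptions. Between members the correlation was 0.73 for Ecm1 with Saa3, 0.53 for Lrg1 with Saa3 and 0.37 for Ecm1 with Lrg1.

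Other acute-phase genes were mostly too low in macrophages to compare. In Prog 3 of 22 could be compared and all 3 were past 1.2-fold higher (median log2 ratio 0.96). They ran from Hp, which binds haemoglobin, at 1.07 to the complement gene C3 at 0.49, whose interval (−0.024 to 1.04) spans 0. In Int 5 could be compared and 4 were higher (median 0.60), from Orm1 at 1.66, with 5 UMIs in I-LC32, to C3 at 0.12 (−0.22 to 0.48). Orm1 met the filter on cells through I-HC32, where it is high. None could be compared over all cells. These counts are descriptions of few genes, beside 21.2% and 14.2% of all compared genes and medians of −0.11.

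Of 9 receptors and carriers of serum amyloid A, 7 were compared. In Prog 2 were higher and 4 lower (median −0.34), where 21.2% of compared genes were higher and 36.7% lower. In Int 1 was higher and 4 lower (median −0.30), where 14.2% were higher and 32.1% lower. The formyl peptide receptor Fpr2 was the lowest in both, at −0.43 (−1.30 to 0.58) and −1.11 (−1.79 to −0.39). The highest was Fpr1 in Prog, at 1.70 (0.31 to 3.60) from 4 UMIs in P-LC24, and Tlr4 in Int, at 0.40. Over all cells, the scavenger receptor Cd36 stood at 0.87 in Prog and 1.44 in Int, and Tlr4 at 0.58 in Int.

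Of 19 genes of the interleukin 6, interleukin 1 and interferon pathways, which induce acute-phase genes, 17 were compared in macrophages. In Prog 11 were higher and 2 lower (median 0.55), from Tnf at 2.32, with 10 UMIs in P-LC24, to Il1rap at −1.14. In Int 7 were higher and 3 lower (median 0.08), from the cytokine Osm at 1.15 to Il1rap at −0.54. Among all genes compared in macrophages, 21.2% were higher in Prog and 14.2% in Int, while 36.7% and 32.1% were lower. Over all cells 4 of 12 were higher and 3 lower in Prog, where 16.5% of compared genes were higher and 47.5% lower. In Int 6 of 12 were higher and 0 lower, where 13.4% were higher and 12.2% lower. These backgrounds move with the scaling: with median-of-ratios factors, 2557 genes were higher and 1441 lower over all cells in Prog, in place of 1166 and 3356, and in macrophages 2287 and 1875 in Prog, in place of 1610 and 2780, and 1944 and 1660 in Int, in place of 1199 and 2717. In each of these 3 splits more genes were then higher than lower. Osm led over all cells at 1.64 and 1.95, and Il1rap (−0.74) and Jak1 (−0.24) were lowest.

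Of 22 TGF-beta signalling genes, the pathway that Ecm1 and Lrg1 are known to touch, 16 were compared in macrophages. In Prog 4 were higher and 9 lower (median −0.37), from the target gene Id3 at 3.02, with 7 UMIs in P-LC24, to Smad5 at −0.97. In Int 4 were higher and 2 lower (median 0.05), from Id3 at 1.43 to Smad3 at −0.54. For all compared genes in macrophages the share higher was 21.2% in Prog and 14.2% in Int, and the share lower was 36.7% and 32.1%. Over all cells 1 of 11 was higher and 7 lower in Prog, from Id3 at 0.31 to Smad4 at −0.70, and 3 of 14 were higher and 1 lower in Int, from Tgfb2 at 2.82 to Smad7 at −0.65. Of all compared genes over all cells, 16.5% and 13.4% were higher and 47.5% and 12.2% lower.

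Of 18 matrix genes, 5 were compared in macrophages in Prog, of which 2 were higher and 2 lower (median −0.15), from the protease inhibitor Timp2 at 0.86 to the integrin Itgb1 at −0.58. In Int 6 were compared, 2 were higher and 0 lower (median 0.20), from Itgb3 at 1.12 to Itgav at −0.15. The macrophage background was 21.2% and 14.2% of genes higher and 36.7% and 32.1% lower. Over all cells 3 of 7 were higher and 3 lower in Prog, and 4 of 7 higher and 1 lower in Int, against 16.5% higher and 47.5% lower, and 13.4% and 12.2%, of all compared genes. Timp2 (2.75 in Prog) and Thbs1 (2.42 in Int) were highest, with Itgb3 (−0.87) and Lamb3 (−0.64) lowest. In Prog, Timp2 met the filter only through P-HC24, where it is high (in 17.9% of cells against 8.62%), so its place in that count is no support. Its place among the 5 top-ranked genes of Prog over all cells came through the same filter, and without it Timp2 ranked 40 of 11712. Timp2 was also among the 5 nearest genes of Ecm1 over single macrophages, which were named after their values were seen.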

How the data were processed

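The 4 single-cell libraries (Chromium 3′ v3.1), 1 per condition, were used. The deposited matrices hold whole-number UMI counts per gene and barcode, made by the authors with Cell Ranger 9.0.1 on GRCm39 (Seurat 5.3 is also named in the submitters' processing notes). The authors' later correction for free RNA with SoupX was not applied here. The 3 genes, the gene lists and the markers were chosen with earlier results of these data known.

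Of 7035, 7946, 9828 and 8389 barcodes (in the order of the report), those with at least 500 UMIs, at least 300 genes and at most 10% mitochondrial UMIs were retained. Scrublet (scanpy 1.11.5) scored doublets, and the highest-scoring 0.8% per 1000 cells were removed. Cells were normalised with sctransform 0.4.2 in Seurat 5.3.0 (R 4.3.3; 3000 variable genes without Ecm1, Lrg1 and Saa3), integrated over 30 principal components with a rewritten Harmony procedure, and clustered at a resolution of 0.4 into 18 clusters, which were named from marker lists. A difference from the study's cell types may come from these rebuilt names. Clusters 6, 12, 15 and 17 stayed unnamed.

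Counts were summed per class and library in Python 3.11.15 with NumPy 2.4.6, pandas 2.3.3 and SciPy 1.17.1. Ratios of CPM carry exact Poisson intervals and shares carry exact Clopper-Pearson intervals. Genes were compared where they had 100 or more UMIs over both libraries and were detected in 10% or more of the cells in one of them, and counted as higher or lower past 1.2-fold. The text names the 3 genes in every class, the highest and lowest member of each list, the 5 nearest genes, and the 5 top-ranked genes of each comparison (leaving out mitochondrial, haemoglobin, immunoglobulin and T cell receptor genes). Promoters came from a RefSeq table of build GRCm38.p6 and were placed on GRCm39 by exact match. Ratios, intervals and the integration were tested on simulated data. Alternatives covered the mitochondrial limit, doublet removal, scaling (edgeR 4.0.16 for TMM), integration, clustering resolution, a marker gate, free RNA and single cells. Neither the SoupX-corrected values nor proteins were analysed here.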

Additional observations from a re-analysis of the deposited data

Results flagged for a closer look

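Some classes went in opposite directions in the pair of comparisons or in the pair of diet arms. With 1 library per condition, no such difference was tested.

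Saa3 in monocyte-like cells had a log2 ratio of −1.96 in Prog and 3.52 in Int, and, week 32 over week 24, of 1.02 in the high-cholesterol arm and −4.46 in the low-cholesterol arm. In P-LC24, 5 of the 159 cells held 294 of the 312 UMIs.

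Lrg1 over all kept cells had a week 32 over week 24 log2 ratio of 0.50 in the high-cholesterol arm and −0.63 in the low-cholesterol arm. Within macrophages both arms were higher at week 32 (0.56 and 0.73). Neutrophil-like cells numbered 124 in P-LC24 and 32 in I-LC32, and held 365 and 81 Lrg1 UMIs.

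Lrg1 in neutrophil-like cells had −1.15 in the high-cholesterol arm and 0.52 in the low-cholesterol arm. Of the 43 cells in I-HC32, 18 had more than 2 Cd79a UMIs and held 0 Lrg1 UMIs, and the other 25 stood at 703 CPM.

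Lrg1 in monocyte-like cells had 2.19 and −1.58, from 20, 14, 8 and 29 UMIs in the order P-LC24, P-HC24, I-LC32, I-HC32.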

How the results depend on the processing

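The 3 genes stayed higher with high cholesterol over all cells under every alternative run in both comparisons (54 values, of which 19 moved less than their counting interval and 35 moved further), and the macrophage share of kept cells stayed higher with high cholesterol. In macrophages, 74 of 102 values moved less than their interval, 26 moved further and 2 changed sign. Both that changed sign are means of UMIs per macrophage without scaling to depth: Saa3 in Int at −0.21, and Ecm1 for week 32 over week 24 in the high-cholesterol arm at −0.033. Alternatives relative to the median gene, with a Gata6 UMI, without cycling cells, without cells of more than 2 Cd79a UMIs, without cells of at least 10 Saa3 UMIs and those of UMIs per cell between weeks were chosen after seeing the data. No paired analysis was possible because each condition had 1 library and the labels give no replicate numbers.

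Over all cells, Prog log2 ratios of Ecm1, Lrg1 and Saa3 were 3.88, 2.62 and 3.25 with a mitochondrial limit of 5%, 3.57, 2.36 and 2.96 with median-of-ratios factors, 3.58, 2.38 and 2.97 with TMM, 3.57, 2.37 and 2.97 as UMIs per cell, 2.98, 0.90 and 3.05 with each cell scaled to its own depth, and 3.50, 2.29 and 2.89 relative to the median gene (−0.23). All barcodes gave 3.37 and 2.21 for Ecm1 and Lrg1, and kept doublets 2.46 for Saa3. In Int the limit of 5% gave 2.22, 2.67 and 2.11, all barcodes 2.92, 3.47 and 2.84, UMIs per cell 3.03, 3.53 and 2.90, TMM 2.76 and 2.63 for Ecm1 and Saa3, scaled cells 2.79 and 3.07 for Lrg1 and Saa3, and kept doublets 2.69 for Saa3.

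In macrophages, UMIs per cell gave 0.90, 0.84 and 0.15 in Prog and 0.32 and 0.63 for Ecm1 and Lrg1 in Int. A limit of 20% gave 1.33 and 1.39 for Ecm1 and Lrg1 in Prog. Scaled cells gave 1.38 and 0.61 for Ecm1 and Saa3 in Prog and 0.50 and 0.067 in Int. For Saa3, kept doublets gave 0.24 and 0.19, the median gene 0.55 and 0.23, a marker gate 0.63 in Prog, and leaving out the cell with the most UMIs in each library 0.20 in Int. Ecm1 relative to the median gene was 0.77 and Lrg1 in the gate 1.12 in Int. For week 32 over week 24 in the high-cholesterol arm, UMIs per cell gave 0.44 for Lrg1 and 0.074 for Saa3, and cells with a Gata6 UMI 0.16 for Saa3. Leaving out cycling cells gave 0.56 for Ecm1 and 0.24 for Saa3 in Int, and 0.12 and 0.38 for Saa3 between weeks in the high- and low-cholesterol arms.

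The macrophage share had log2 ratios of 3.78 and 2.73 with the limit of 5%, where 37, 379, 65 and 596 macrophages were left. The gate took cells by UMIs of macrophage markers and left out those with more than 2 Cd79a UMIs. With the gate, macrophages held 72.8% of Saa3 in P-LC24, 84.7%, 83.3% and 90.4% of the 3 genes (same order) in P-HC24, with 54.4%, 62.2% and 79.5% in I-LC32 beside 86.9%, 93.6% and 93.1% in I-HC32. Of all genes, 1166 were higher and 3356 lower over all cells in Prog, against 3000 and 8864 with a minimum of 20 UMIs, 310 and 1337 at 1.5-fold, and 2557 and 1441 with median-of-ratios factors. In Int 1040 and 942 became 3520 and 4635, and 369 and 166. In macrophages, 1610 higher in Prog became 2959 and 657, and 2780 lower became 1020 at 1.5-fold, with 2287 and 1875 under median-of-ratios factors; in Int 1199 and 2717 became 2189 and 4250, 396 and 797, and 1944 and 1660. Saa3 in macrophages in Prog lost the 1.2-fold mark with doublets kept and as UMIs per cell. The causes were not tested. The 38 macrophages of P-LC24 limit every macrophage ratio of Prog.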
